A study of Mus musculus with 47 samples.

Results

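Microglia without functional Apoe were compared with microglia carrying 1 disrupted copy, both after myelin. The comparison rests on 9 of the 47 libraries of the series, taken by their labels: 5 from cells with both Apoe copies disrupted (Apoe -/-, called KO here) and 4 from heterozygous cells (Apoe +/-, called Het). Both groups were forebrain primary microglia on a C57BL/6 background from 1 Jackson Laboratory line. All were grown in medium with serum, given myelin for 3 h and collected at 24 h, and polyA RNA was sequenced. Wild-type (WT) microglia after myelin, 5 libraries from another C57BL/6 line, and the untreated KO and Het libraries, 5 each, are set beside them where they help to place a value. The study asked how APOE genotype alters microglia at rest and after a myelin load, also in human APOE3 and APOE4 knock-in cells that are not described here. The labels give no ages and do not say that replicates came from separate animals or cultures, so p-values here speak for differences beyond library-to-library spread, part of which can be technical.

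Microglia are the resident macrophages of the brain, and in culture they take up myelin, a membrane sheath rich in cholesterol and sphingolipid. Cholesterol from engulfed myelin is freed in lysosomes, stored as ester in lipid droplets or exported onto apolipoprotein E, the main lipid carrier made by glia. Sterol excess inside a cell activates the LXR nuclear receptors, whose targets include Apoe itself and the exporters Abca1 and Abcg1, and it holds back SREBP2, which drives the genes of sterol synthesis and uptake. E2F transcription factors act on many DNA replication genes, and NF-kB acts on cytokine genes and on those of its own inhibitors.

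The 4 Het libraries were less alike than the KO libraries, and the groups differed in what their TPM consisted of. Transcript shares (TPM), which are corrected for gene length, sum to a fixed total in every library and carry no read depth. The non-coding RNA gene Gm23935 held 71.0% to 75.4% of TPM in KO libraries and 83.9% to 95.1% in Het libraries. Nuclear protein-coding genes held 21.7% to 25.9% in KO libraries, against 4.12%, 2.91%, 8.04% and 13.9% in Het replicates 1 to 4, and 13.05% to 24.8% in WT libraries. The KO and Het ranges did not overlap. Levels below are therefore scaled TPM: each library was brought to the same nuclear coding total and then corrected with trimmed-mean library factors of 1.02 to 1.08 in KO and 0.725 to 0.904 in Het. Correlations between libraries on the log2 scale were 0.982 to 0.989 among KO libraries, 0.926 to 0.973 among Het libraries, and 0.880 to 0.978 between KO and Het. In the weighted fit Het replicate 3 carried 73.6% of the Het mean. In bulk RNA, fewer cells of a type and less RNA per cell cannot be told apart.

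Apoe, which encodes apolipoprotein E and lies at chr7:19696109-19699188 (mm10), was measured first because it checks the labels. It was at 74.8, 80.7, 62.4, 65.0 and 73.9 scaled TPM in KO libraries, against 31561, 16425, 55507 and 55926 in Het libraries. The WT libraries lay between 55438 and 81260. All KO libraries lay far below all Het libraries, among which the replicates of lowest coding content were also the lowest in Apoe. The log2 difference, KO minus Het, was -8.95 (two-sided exact permutation p = 0.0159, the smallest that 5 against 4 libraries allow), and the weighted limma estimate was -9.44 ± 0.22 (SE here and below). In Het libraries this 1 gene made 1.48% to 5.05% of the nuclear coding total. The TPM do not show from which exons the remaining KO signal came.

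The apolipoprotein genes next to Apoe fell with it. Apoc2, a cofactor of lipoprotein lipase at chr7:19671579-19677941, was at 29.7, 20.2, 25.8, 35.7 and 20.8 scaled TPM in KO libraries, against 365, 104, 199 and 208 in Het libraries. Apoc1, which encodes a small apolipoprotein that inhibits lipoprotein lipase, at chr7:19689481-19692660, was at 37.7, 39.4, 24.5, 41.5 and 22.4 in KO, against 401, 147, 218 and 216 in Het. Neither gene overlapped between the groups, and WT libraries held 135 to 200 of Apoc2 and 80.5 to 175 of Apoc1, in or near the Het range. The log2 differences were -2.89 ± 0.18 for Apoc2 and -2.69 ± 0.25 for Apoc1 (limma, Benjamini-Hochberg adjusted p = 9.80e-16 and 4.35e-11), and both were called in all 21 alternative settings.

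The disrupted allele of such lines was made in stem cells of another mouse strain, and DNA flanking the target can stay with it through backcrossing. Genes starting within 5 Mb of Apoe were therefore counted. Of these 69 tested genes, 25 fell and 10 rose, with a median log2 difference of -0.15. Over all 10948 tested genes 22.1% fell and 24.8% rose, with a median of 0.03. With scaling to the coding total alone the neighbours split into 14 lower and 25 higher, beside 12.6% lower and 52.2% higher of all genes, so their balance depended on the scaling. With the log2 coding share of each library as a covariate 4 fell and 1 rose, beside 1.69% and 2.68% of all genes. Selenow, a selenoprotein gene, was at 93.4 to 117 scaled TPM in KO libraries and 188 to 314 in Het libraries, a log2 difference of -1.17 ± 0.14 (adjusted p = 2.13e-08, limma), and Clptm1, which encodes a membrane protein, was at 142 to 187 in KO and 33.3 to 128 in Het (0.84 ± 0.13, adjusted p = 2.25e-06). Both lost the call with that covariate. A local effect of the disrupted allele, flanking DNA of another strain and an effect of lost apolipoprotein E cannot be told apart in this design.

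**Figure D1:**
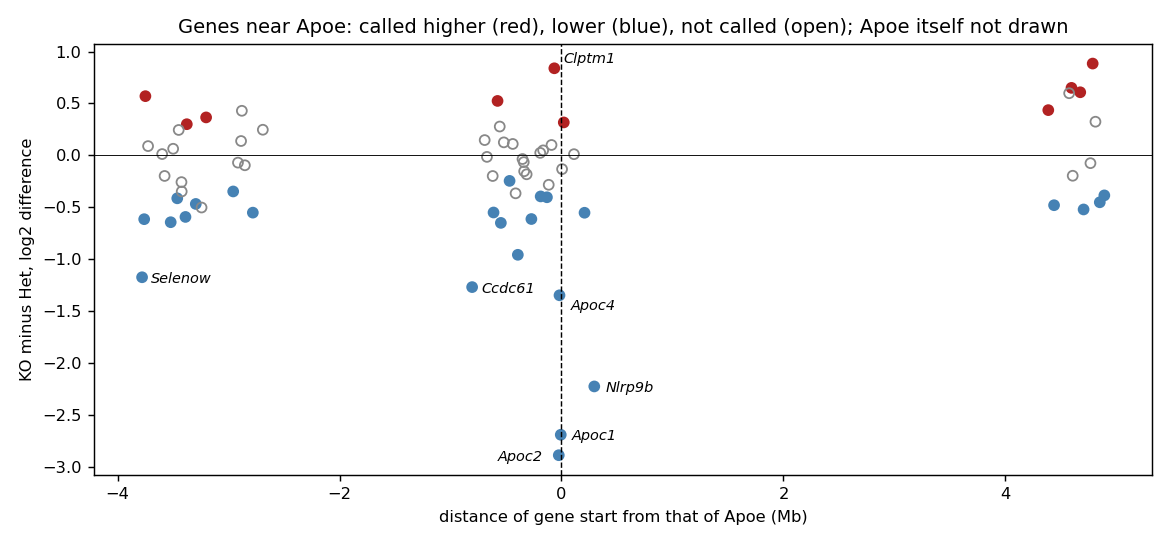
Log2 difference, KO minus Het after myelin, of the 69 tested genes that start within 5 Mb of Apoe, by distance of their start from that of Apoe in Mb (filled points were called, red higher and blue lower in KO; open points were not called). Apoc2 at -2.89 and Apoc1 at -2.69 lie lowest, beside Apoe, and 34 genes were not called.

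Beyond this locus, KO cells held less transcript of cytokine and immediate early genes and of fatty acid binding proteins, and more of Cd36, Lpl and Pltp and of genes of sterol synthesis and DNA replication. Limma called 5134 of 10948 genes (46.9%) at an adjusted p under 0.05, of which 2715 rose and 2419 fell in KO. In 2715 genes (24.8%), 1405 higher (12.8%) and 1310 lower (12%), the call came with all KO libraries on one side of all Het libraries. Most differences were small, and 255 genes rose and 464 fell by over 1 on the log2 scale. How many genes were called depended on the Het libraries. Without Het replicate 3 limma called 831 (365 higher, 3.33%, and 466 lower, 4.26%), and without Het replicate 1 it called 6792. Without the low-content Het replicates 1 and 2 together it called 1773, of which 897 were higher (8.19%) and 876 lower (8%). With the coding share as a covariate 478 genes were called (293 higher, 2.68%, and 185 lower, 1.69%), and since KO and Het did not overlap in that share, its effect there was carried by the spread within the 10 groups. Scaled to the coding total without library factors, 5694 of 10905 genes were higher (52.2%) and 1372 lower (12.6%), with the median of all genes shifted to 0.32. Counts of list members below stand beside these shares, and beside 24.8% higher and 22.1% lower in the main fit.

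**Figure D2:**
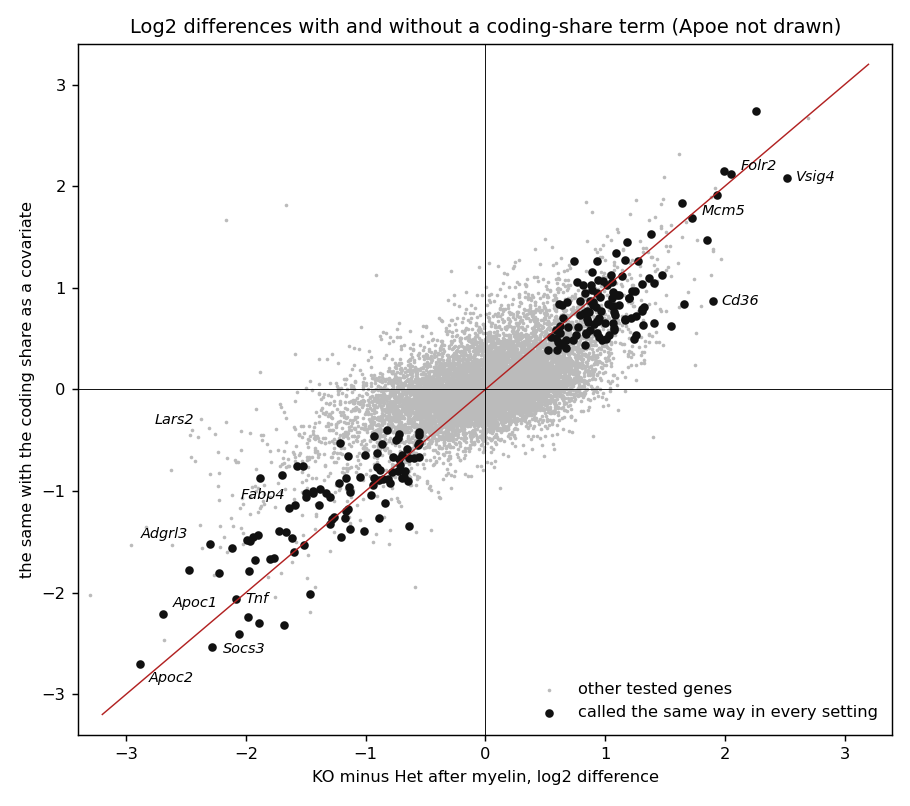
Log2 difference, KO minus Het after myelin, in the weighted limma fit (horizontal axis) and with the coding share of each library added as a covariate (vertical axis), 1 point a gene, with the line of equality in red. Black points are the genes called the same way in every setting. Tnf, Socs3, Folr2 and Mcm5 lie near the line, and Lars2 at -2.31 without and -0.38 with the covariate lies far from it.

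To keep apart what survived these choices, genes called in the same direction in the weighted fit and in every one of the 21 alternatives that tested them were counted, a rule added after the results had been seen. There were 205, of which 110 rose (1%) and 95 fell (0.868%). These are called the lasting genes below. Genes of largest change were picked only from called genes with all KO libraries on one side of all Het libraries. This held in 24.8% of all tested genes, and for the genes so picked non-overlap follows from that choice wherever it is given. Lasting genes among the largest changes were Vsig4, Folr2, Col18a1, Cd36, Mcm5, Pcp4l1 and Pik3ap1, which rose, and Apoc2, Apoc1, Socs3, Gadd45b, Tnf and Egr1, which fell. Others of similar size were not lasting. Lars2, the mitochondrial leucyl-tRNA synthetase gene, was at 6643, 6205, 5565, 8080 and 6082 scaled TPM in KO libraries, against 74113, 99106, 33154 and 12937 in Het libraries. Within Het it ran in the reverse order of the coding share. Untreated Het replicate 5, with a coding share of 0.468%, held 289614. Lars2 is part of the coding total used for scaling, and whether this signal is mRNA of that enzyme was not tested. Adgrl3, an adhesion receptor gene, Rps12, a ribosomal protein gene whose pseudogene copies make its TPM uncertain, and Slc35a5, a solute carrier gene, were likewise called at -2.96 ± 0.40, -2.08 ± 0.36 and 1.75 ± 0.28 (limma), and all 3 lost the call with the covariate. So did the predicted gene Gm10800 (-2.40 ± 0.40), named after its values were seen.

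**Figure D3:**
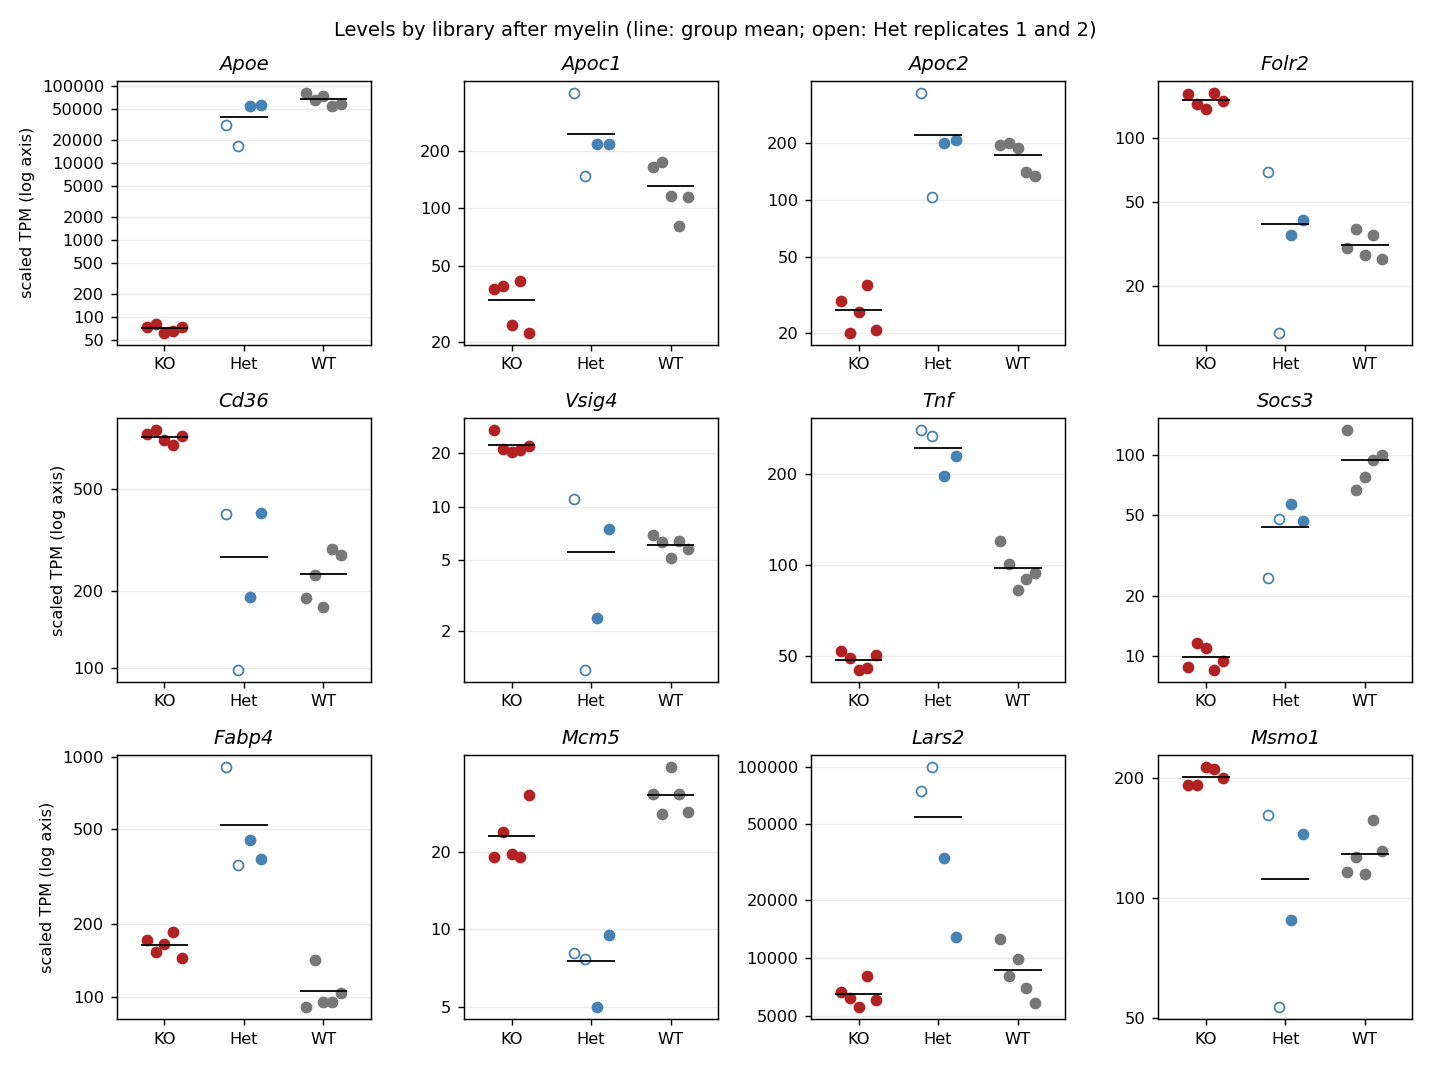
Scaled TPM (log axis) of 12 genes in KO, Het and WT libraries after myelin, 1 point a library, with the group mean as a line and Het replicates 1 and 2 as open points. In Apoe, Apoc1, Apoc2, Tnf, Socs3, Fabp4 and Lars2 all KO points lie below all Het points, and in Folr2, Cd36, Vsig4, Mcm5 and Msmo1 all lie above them. Apart from Apoe, Fabp4 and Msmo1, these genes were picked from those without overlap.

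Cd36, Lpl and Pltp, which handle fatty acids and lipoproteins, rose in KO, while Apoc1 and Apoc2 fell as given above. Cd36, a scavenger receptor that takes up fatty acids and oxidized lipoprotein, was at 820, 849, 774, 745 and 807 scaled TPM in KO libraries, against 398, 98.0, 189 and 402 in Het libraries. Lpl, which encodes lipoprotein lipase, was at 2932, 3002, 2542, 2505 and 3071 in KO, against 1344, 574, 1144 and 1584 in Het. Pltp, the phospholipid transfer protein gene, was at 259, 242, 249, 259 and 248 in KO, against 75.8, 48.2, 112 and 146 in Het. In all 3 genes every KO library lay above every Het library, and the KO libraries were close to each other. The log2 differences were 1.90 ± 0.19, 1.26 ± 0.15 and 1.20 ± 0.13 (limma, adjusted p = 3.28e-10, 1.24e-08 and 1.11e-09), all lasting, although that of Cd36 was 0.87 with the covariate. WT libraries held 172 to 291 of Cd36, 493 to 780 of Lpl and 133 to 168 of Pltp, so the Het range of Cd36 overlapped that of WT while the lowest Het library of Lpl alone lay within the WT range.

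Calls among LXR targets went both ways, beside 24.8% higher and 22.1% lower of all tested genes. Of 20 tested LXR and cholesterol efflux genes 8 rose and 6 fell (median 0.23), or 3 and 4 without Het replicates 1 and 2 and 2 and 3 with the covariate. Scaled to the coding total alone, 14 rose and 3 fell (median 0.51). Abca1, an exporter of cholesterol, was not called at 0.22, and Abcg1, another exporter, was at 11.9 to 17.7 scaled TPM in KO and 7.34 to 29.9 in Het (-0.58, adjusted p = 0.023, limma). Both were named after their values were seen. The lasting members were Lpl and Pltp, higher, and Apoc1 and Apoc2, lower.

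The genes of sterol synthesis and uptake rose or were not called. Of 23 tested, 16 rose, 0 fell and 7 were not called, with a median log2 difference of 0.55. Without Het replicates 1 and 2, 10 rose, without Het replicate 3 7 rose, and with the covariate 4 rose, none falling in any of these. Sqle, squalene epoxidase, was at 61.4, 67.4, 65.4, 63.5 and 67.8 scaled TPM in KO libraries, against 31.6, 25.1, 36.6 and 38.7 in Het libraries. Msmo1, a sterol methyl oxidase, was at 192, 191, 212, 210 and 200 in KO, against 161, 53.3, 87.8 and 144 in Het. The groups did not overlap in either gene, and WT libraries held 45.5 to 59.8 of Sqle and 115 to 156 of Msmo1. The log2 difference of Sqle was 0.83 ± 0.10 and lasting (adjusted p = 1.77e-08, limma). Those of Msmo1 (1.05 ± 0.13), Cyp51 (lanosterol demethylase, 0.92 ± 0.13) and Nsdhl (a sterol dehydrogenase, 0.72 ± 0.10) were called, but Msmo1 and Cyp51 lost the call with the covariate and Nsdhl without Het replicate 3. The second lasting member was Srebf2, the gene of SREBP2, at 74.5 to 92.6 in KO and 36.8 to 55.4 in Het (0.55).

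The fatty acid binding proteins fell, while Pparg rose. Fabp4 was at 172, 154, 166, 186 and 145 scaled TPM in KO libraries, against 902, 355, 449 and 375 in Het libraries. Fabp3 was at 94.9, 97.9, 76.8, 91.7 and 92.9 in KO, against 293, 160, 238 and 203 in Het. Fabp5 was at 2264, 2257, 2341, 2647 and 2187 in KO, against 6888, 3329, 4738 and 4203 in Het. These genes encode cytosolic carriers of fatty acids, and no KO library reached the lowest Het library in any of them. The log2 differences were -1.44 ± 0.15, -1.34 ± 0.11 and -1.004 ± 0.11 (limma, adjusted p = 1.08e-09, 5.20e-12 and 1.70e-09), all lasting. WT libraries held 90.8 to 143 of Fabp4, 56.0 to 85.6 of Fabp3 and 2036 to 2697 of Fabp5, so for these genes it was the Het libraries that lay apart from WT. In the list of 23 tested genes of fatty acid synthesis, lipid droplets and fatty acid binding, 8 rose and 6 fell (median 0.13). In the main fit 24.8% of all tested genes rose and 22.1% fell. With scaling to the coding total 15 list members rose and 6 fell. The other lasting genes there were Hilpda, an inhibitor of droplet lipolysis (34.5 to 43.1 scaled TPM in KO, 72.6 to 126.3 in Het, -1.14), and Mgll, monoacylglycerol lipase (8.196 to 9.93 in KO, 18.4 to 31.8 in Het, -1.17), which fell, and Fads2, a fatty acid desaturase (1.48), and Cd36, which rose.

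Pparg encodes a nuclear receptor that controls fatty acid storage and oxidation. It was at 34.2, 38.8, 44.3, 36.7 and 36.6 scaled TPM in KO libraries, against 19.7, 17.6, 17.5 and 17.5 in Het libraries, with 3.56 to 7.43 in WT. The 3 genotypes did not overlap, and the log2 difference of KO from Het was 1.06 ± 0.15 and lasting (adjusted p = 7.94e-07, limma). Of 18 tested PPAR and fatty acid oxidation genes 9 rose and 2 fell (median 0.15), and with the covariate 1 rose and 1 fell. Rxra, a partner of PPARs, fell by 0.71 on the log2 scale, and Etfdh and Hadhb, of fatty acid oxidation, rose by 0.62 and 0.58. These 3 lost the call with the covariate.

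Transcripts of cytokines, chemokines and NF-kB feedback inhibitors fell. Of 28 tested genes 16 fell and 5 rose, with a median log2 difference of -0.36. Without Het replicates 1 and 2, 13 fell and 3 rose, without Het replicate 3 11 fell and 1 rose, and with the covariate 12 fell and 3 rose. Scaled to the coding total alone, 12 fell and 10 rose. Tnf, the gene of tumour necrosis factor, was at 52.1, 49.4, 45.1, 45.5 and 50.6 scaled TPM in KO libraries, against 280, 268, 197 and 229 in Het libraries. Nfkbia, the gene of the NF-kB inhibitor IkB alpha, was at 318, 324, 314, 333 and 283 in KO, against 1083, 1589, 1224 and 930 in Het. Cxcl2, a neutrophil attractant, was at 51.7, 63.7, 58.1, 66.8 and 53.2 in KO, against 366, 466, 218 and 193 in Het. The groups did not overlap in any of these 3 genes. The log2 differences were -2.08 ± 0.14, -1.90 ± 0.12 and -1.97 ± 0.18 (limma, adjusted p = 6.22e-15, 2.28e-15 and 3.99e-11).

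The WT libraries lay on either side of Het, depending on the gene. They held 82.5 to 120 of Tnf and 538 to 727 of Nfkbia, between KO and Het, and 248 to 344 of Cxcl2, within the Het range. Ccl5, a T cell attractant, was at 81.6 to 131 scaled TPM in KO, 277 to 470 in Het and 341 to 493 in WT (KO minus Het -1.64 ± 0.15, adjusted p = 3.99e-11, limma). Socs3, an inhibitor of cytokine receptor signalling, was at 8.89, 11.6, 10.995, 8.58 and 9.45 in KO libraries, against 24.4, 48.0, 56.8 and 46.6 in Het libraries and 66.8 to 132 in WT. Its log2 difference was -2.29 ± 0.17 (adjusted p = 5.00e-14, limma), and it was lasting, as was Ccl5. Lasting list members that fell numbered 11: Tnf, Nfkbia, Cxcl2, Ccl5, Il1a, Il1b, Cxcl1, Ccl3, Nlrp3, Tnfaip3 and Nfkbiz. Ccl9, a chemokine gene, was the 1 lasting member that rose (0.97), with 274 to 312 in KO and 54.5 to 278 in Het. Ccl2, a monocyte attractant, also went the other way at 58.4 to 79.7 in KO and 19.1 to 57.6 in Het (1.51, adjusted p = 6.85e-07), and Il6 was not called at 0.10. These last were named after their values were seen. Saa3, an acute phase protein gene, was at 257 to 1132 in KO and 1219 to 3634 in Het (-2.03 ± 0.33) and lost the call without Het replicate 3.

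The promoters of those lasting cytokine and feedback genes that fell were searched for the kB motif. RefSeq windows (GRCm38.p6) of 250 bases before the start were at hand for 9 of the 11. The kB consensus, taken after narrower forms of the motif had been tried, was searched on both strands, on which matches can overlap. It was in 4 of the 9 windows (44.4%), against 739 of 8566 windows of tested genes (8.63%), and in 5 of 12 windows (41.7%) of all list members that fell. The list was drawn up to hold NF-kB feedback genes, so a share above that of all windows can come from the list alone. List members that did not fall were not counted apart, so the share says nothing on genotype. A match is a description of these letters, not a site. The 4 windows are printed 5′ to 3′ on the strand of the gene, with the matches in capitals. The windows of Tnf, Il1a, Il1b, Ccl3 and Nlrp3 held no match.
Cxcl1, chr5:90890995-90891244, plus strand: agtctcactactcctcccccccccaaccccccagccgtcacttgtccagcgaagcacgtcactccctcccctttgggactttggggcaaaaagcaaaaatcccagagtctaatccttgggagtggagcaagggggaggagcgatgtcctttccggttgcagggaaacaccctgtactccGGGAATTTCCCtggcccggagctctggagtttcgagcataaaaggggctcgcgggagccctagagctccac
Cxcl2, chr5:90903649-90903898, plus strand: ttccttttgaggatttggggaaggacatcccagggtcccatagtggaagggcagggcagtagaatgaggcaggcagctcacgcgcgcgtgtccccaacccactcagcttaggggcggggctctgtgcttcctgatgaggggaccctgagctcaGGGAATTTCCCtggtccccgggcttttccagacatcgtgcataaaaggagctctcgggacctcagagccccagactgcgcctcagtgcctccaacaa
Nfkbia, chr12:55492648-55492897, minus strand: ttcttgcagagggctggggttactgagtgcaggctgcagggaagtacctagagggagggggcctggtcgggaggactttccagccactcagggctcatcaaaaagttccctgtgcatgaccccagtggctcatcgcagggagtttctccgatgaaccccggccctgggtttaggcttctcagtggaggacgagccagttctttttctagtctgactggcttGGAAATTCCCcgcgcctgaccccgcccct
Tnfaip3, chr10:19015411-19015660, minus strand: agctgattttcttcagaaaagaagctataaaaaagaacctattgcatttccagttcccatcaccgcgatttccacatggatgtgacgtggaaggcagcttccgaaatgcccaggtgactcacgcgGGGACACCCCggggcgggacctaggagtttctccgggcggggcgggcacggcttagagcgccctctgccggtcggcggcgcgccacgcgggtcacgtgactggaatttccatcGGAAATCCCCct
In Cxcl1 and in Cxcl2 the same 11 letters held 2 overlapping matches, 1 on each strand. Nfkbia held 1 match. Tnfaip3 held 3, of which 2 lie on opposite strands of the same letters. Cxcl1, a neutrophil attractant, was at 5.18, 6.71, 6.11, 7.69 and 3.97 scaled TPM in KO libraries, against 32.0, 20.2, 13.8 and 18.9 in Het libraries. Tnfaip3, which encodes the NF-kB inhibitor A20, was at 19.2, 18.3, 17.9, 16.6 and 25.6 in KO, against 42.1, 43.4, 34.3 and 39.4 in Het. The groups did not overlap in either gene, and the log2 differences were -1.27 and -0.89 (limma, adjusted p = 1.4e-05 and 2.4e-05).

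Immediate early genes, which many stimuli switch on within minutes, also fell. Of 22 tested 12 fell and 1 rose (median -0.43), or 8 and 0 without Het replicates 1 and 2 and 7 and 0 with the covariate. Scaled to the coding total alone, 8 fell and 5 rose (median -0.14). Egr1, a zinc finger transcription factor, was at 53.7, 40.2, 39.6, 30.9 and 39.7 scaled TPM in KO libraries, against 138, 276, 170 and 198 in Het libraries. Ier2, a nuclear regulator, was at 135, 130, 121, 109 and 115 in KO, against 219, 464, 444 and 427 in Het. Gadd45b, a stress-induced gene that NF-kB controls, is not on this list and was named for its large change. It was at 30.2, 30.3, 25.7, 30.5 and 31.1 in KO, against 88.0, 180, 149 and 121 in Het. The groups were apart in all 3, by the rule of choice in Egr1 and Gadd45b. The log2 differences were -2.06 ± 0.25, -1.77 ± 0.15 and -2.22 ± 0.16 (limma, adjusted p = 2.21e-08, 8.49e-12 and 2.01e-14), all lasting. Ier3 (-1.52 ± 0.14), Btg2 (-1.17 ± 0.14), Nr4a1 (-1.30) and Zfp36 (-0.68) were lasting too. Fos fell less, at 637 to 740 in KO and 764 to 1085 in Het (-0.35, adjusted p = 0.035), and Junb was at 401 to 467 in KO and 207 to 747 in Het (-0.51). Fos and Junb were named after their values were seen. WT libraries held 314 to 499 of Ier2 and 427 to 486 of Ier3, the second above both other genotypes.

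Genes of DNA replication and mitosis rose. Of 36 tested 30 rose and 0 fell, with a median log2 difference of 0.98, and 23 rose without Het replicates 1 and 2, 26 with the covariate and 6 without Het replicate 3. Mcm5, a subunit of the replicative helicase, was at 19.1, 23.8, 19.7, 19.1 and 33.2 scaled TPM in KO libraries, against 8.09, 7.67, 5.001 and 9.48 in Het libraries. Mcm6, another subunit, was at 56.6, 59.9, 50.4, 48.3 and 64.0 in KO, against 22.7, 24.0, 25.7 and 29.8 in Het. Mcm4 was at 13.7, 15.2, 13.7, 10.99 and 16.8 in KO, against 3.24, 7.07, 3.9997 and 8.56 in Het. KO lay above Het in every library of these 3 genes. WT libraries held 28.1 to 42.6 of Mcm5, 45.9 to 55.9 of Mcm6 and 18.5 to 25.5 of Mcm4, at or above KO in Mcm5 and Mcm4, so the Het libraries were the lowest of the 3 genotypes. The log2 differences of KO from Het were 1.73 ± 0.15, 1.06 ± 0.09 and 1.41 ± 0.16 (limma, adjusted p = 1.51e-11, 5.20e-12 and 7.89e-09). The lasting members were Mcm2, Mcm4, Mcm5, Mcm6, Mcm7 and the spindle motor gene Kif11. Ccnb1 and Ccnb2, cyclins of mitosis, were called at 1.90 ± 0.24 and 1.55 ± 0.18 and lost the call without Het replicate 3. Levels of most mitotic genes were low, and Kif11 was at 2.13 to 3.24 in KO and 0.539 to 1.19 in Het.

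Promoter windows of the lasting replication genes were searched for the E2F motif as TTTCGCGC or TTTGGCGC on both strands. Windows were at hand for 5 of the 6 genes, and 2 of them (40%) held it, against 115 of 8566 windows (1.34%). Among all list members that rose it was in 3 of 23 (13%). E2F factors act on many replication genes, so a share above that of all windows can come from the list alone. List members that did not rise were not counted apart, so the share says nothing on genotype. Both windows with a match are printed 5′ to 3′ on the strand of the gene, with matches in capitals. The forms overlap on opposite strands, so that 1 run in capitals can hold a match to each.
Mcm5, chr8:75109259-75109508, plus strand: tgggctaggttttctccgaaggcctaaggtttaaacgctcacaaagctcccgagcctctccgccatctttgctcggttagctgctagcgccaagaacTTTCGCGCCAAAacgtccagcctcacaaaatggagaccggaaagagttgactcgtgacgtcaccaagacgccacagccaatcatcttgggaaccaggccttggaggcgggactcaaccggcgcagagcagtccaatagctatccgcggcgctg
Mcm6, chr1:128359706-128359955, minus strand: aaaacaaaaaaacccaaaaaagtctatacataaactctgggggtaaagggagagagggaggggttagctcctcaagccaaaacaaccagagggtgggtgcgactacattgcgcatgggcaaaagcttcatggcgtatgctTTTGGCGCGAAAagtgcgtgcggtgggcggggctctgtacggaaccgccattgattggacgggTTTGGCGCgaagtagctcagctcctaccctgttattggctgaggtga
The Mcm5 window held 2 matches and that of Mcm6 3. The windows of Mcm2, Mcm7 and Kif11 held neither form.

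Receptors of macrophages and microglia rose in part. Folr2, a folate receptor of tissue macrophages, was at 161, 144, 136, 162 and 148 scaled TPM in KO libraries, against 69.0, 12.1, 35.0 and 41.2 in Het libraries. Vsig4, a complement receptor of macrophages, was at 26.9, 21.1, 20.4, 20.7 and 21.9 in KO, against 11.1, 1.20, 2.36 and 7.49 in Het. Csf1r, the receptor on which microglia depend for survival, was at 791, 788, 822, 842 and 996 in KO, against 351, 191, 409 and 527 in Het. KO lay above Het throughout, and WT libraries held 27.0 to 37.2 of Folr2 and 5.14 to 6.91 of Vsig4, within the Het range, and 611 to 796 of Csf1r, above the Het range and overlapping that of KO. The log2 differences were 2.05 ± 0.16, 2.52 ± 0.24 and 1.03 ± 0.13 (limma, adjusted p = 1.96e-13, 6.17e-11 and 8.85e-08), all lasting. Mrc1, the mannose receptor, was lasting as well (27.9 to 31.9 in KO, 8.23 to 23.5 in Het, 1.07 ± 0.12). So were 3 other genes among the largest changes: Col18a1, a basement membrane collagen (1.99 ± 0.18), Pcp4l1 (1.64 ± 0.14), and Pik3ap1, a signalling adaptor of macrophages (1.55 ± 0.18). Prl2c2, a prolactin family gene with near-identical paralogs that make its TPM uncertain, was at 8.66 to 35.4 in KO and 0.771 to 4.92 in Het (2.70 ± 0.35) and lost the call without Het replicate 3. Pcp4l1 was at 29.3 to 37.4 in KO, 7.62 to 10.6 in Het and 8.94 to 13.8 in WT. Col18a1 was at 16.3 to 20.6 in KO and 3.38 to 9.99 in Het, with WT above both at 22.5 to 34.8. Fibroblast and pericyte markers summed to 3447 to 5321 in WT and 233.8 to 683.7 in KO. Their part in the WT level was not tested.

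Of 20 tested homeostatic microglia genes 11 rose and 3 fell (median 0.46), but 3 and 3 without Het replicates 1 and 2 and 1 and 1 with the covariate. Cx3cr1, the fractalkine receptor, was at 416 to 533 scaled TPM in KO and 143 to 336 in Het (0.78 ± 0.13), and Fcrls, an Fc receptor-like gene of microglia, at 583 to 648 in KO and 167 to 450 in Het (0.79 ± 0.13). Both lost the call with the covariate. Of 25 tested genes of the disease-associated microglia state, described around amyloid plaques in mice, 9 fell and 4 rose (median 0.04), a balance that turned to 4 lower and 14 higher with scaling to the coding total. Its lasting members were Lpl, higher, and Cst7, lower. Cst7, a cystatin that inhibits lysosomal cathepsins, was at 10.2, 9.48, 9.81, 10.9 and 13.5 in KO libraries, against 56.6, 24.9, 45.1 and 43.3 in Het libraries and 9.11 to 15.6 in WT. KO overlapped WT while Het stood above both (KO minus Het -1.98 ± 0.13, adjusted p = 3.17e-15, limma). Trem2, Gpnmb and Itgax of this list were not called, at -0.15, 0.10 and 0.33, and are named after their values were seen. Of 29 complement and phagocytic receptor genes 9 rose and 7 fell (median 0.17), beside 24.8% and 22.1% of all tested genes. The counts were 20 and 3 with scaling to the coding total (median 0.48) and 1 and 4 with the covariate. Itgam, an integrin subunit of complement receptor, was at 153 to 206 in KO and 41.4 to 96.9 in Het (1.33 ± 0.16), and lost the call with the covariate.

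Stress pathways differed in direction. The ATF4 target list had 11 of 22 genes lower and 3 higher (median -0.24), 9 and 0 without Het replicates 1 and 2 and 5 and 0 with the covariate, but 7 lower and 8 higher with scaling to the coding total. Atf4 itself was at 114, 106, 93.9, 114 and 97.7 scaled TPM in KO libraries, against 187, 180, 182 and 145 in Het libraries (-0.72 ± 0.09, adjusted p = 2.13e-08, limma). It was lasting, as was Mthfd2, a mitochondrial folate enzyme (-0.72 ± 0.11), while Trib3 (-1.11 ± 0.18) lost the call without Het replicate 3 and Atf5 (-1.92 ± 0.23) with the covariate. The ER chaperone list had 15 of 19 genes higher and 0 lower (median 0.39), 7 without Het replicates 1 and 2 and 1 with the covariate. That 1 was Calr, calreticulin, at 444 to 465 in KO and 223 to 397 in Het (0.59 ± 0.08). Sel1l, of ER-associated degradation (1.03 ± 0.14), and Pdia4, a disulfide isomerase (0.85 ± 0.12), lost the call there. Of 29 NRF2 antioxidant genes 8 fell and 7 rose (median 0.00), beside 22.1% and 24.8% of all tested genes. With scaling to the coding total 7 fell and 15 rose. Slc7a11, the cystine importer, was the lasting one. It was at 10.5, 11.2, 10.2, 11.6 and 8.45 in KO libraries, against 49.0, 28.0, 34.3 and 28.4 in Het libraries and 38.0 to 49.1 in WT (-1.60 ± 0.18, adjusted p = 3.63e-09, limma).

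The lists of lysosomal and respiratory chain genes had many calls and no lasting gene. In the main fit 24.8% of all tested genes rose and 22.1% fell. Of 40 lysosomal genes 20 rose and 3 fell (median 0.26), against 6 and 3 without Het replicates 1 and 2, 0 and 1 with the covariate and 35 and 1 with scaling to the coding total. Ctsc, cathepsin C, was at 531 to 603 scaled TPM in KO and 130 to 360 in Het (1.06 ± 0.15), and Lipa, the acid lipase that frees cholesterol from its ester, was at 644 to 720 in KO and 225 to 632 in Het (0.70 ± 0.11). Ctsc and Lipa lost the call with the covariate. Of 38 nuclear-encoded respiratory chain genes 26 fell and 2 rose (median -0.27), 14 and 2 without Het replicates 1 and 2 and 0 and 0 with the covariate. Scaled to the coding total alone, 15 fell and 9 rose, and the median turned to 0.041. Ndufa2, a subunit of complex I, was at 520 to 616 in KO and 974 to 1955 in Het (-1.26 ± 0.18 without and -0.15 with the covariate). Transcript length went with the direction of the calls: the median longest transcript was 3596 bases among genes higher in KO, 2464 among genes lower in KO and 3239.5 over all tested genes. The part of length or coding share in these differences was not tested gene by gene.

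Other lists had fewer or less lasting calls. Of 35 interferon-stimulated genes 6 fell and 0 rose (median -0.15), and 0 were called without Het replicates 1 and 2. Scaled to the coding total alone, 6 fell and 2 rose, and the median turned to 0.072. Isg15, a ubiquitin-like modifier, was at 27.2 to 42.0 scaled TPM in KO and 113, 34.6, 109 and 23.2 in Het, so the groups overlapped. Of 19 MHC class I genes 5 rose and 5 fell (median -0.02), and of 10 MHC class II genes 3 fell and 0 rose (median -0.06). With scaling to the coding total these were 9 higher and 4 lower of class I (median 0.23) and 2 lower and 3 higher of class II (median 0.24). The lasting gene of class I was Calr, given above, which rose. Cd86, a costimulatory ligand, was the lasting gene of class II at 17.0 to 21.1 in KO and 23.6 to 51.1 in Het (-0.65 ± 0.13). Of 26 glycolysis and hypoxia genes 8 rose and 6 fell (median 0.03), or 15 and 2 with scaling to the coding total. Of 23 genes of Alzheimer disease risk, Apoe apart, 7 rose and 1 fell (median 0.10), with Tmem106b, a lysosomal membrane protein gene, at 31.95 to 41.1 in KO and 10.9 to 26.2 in Het (1.48 ± 0.19, not called with the covariate). Of 16 genes of matrix proteases and their inhibitors 6 rose and 0 fell (median 0.47), beside 24.8% higher and 22.1% lower of all tested genes. In 1 of the 6 the groups were apart. The list had 2 higher with the covariate, 1 without Het replicate 3 and 14 with scaling to the coding total, and 0 lower in each. Adam8, a surface metalloproteinase, was lasting at 921 to 1253 in KO and 367 to 623 in Het (0.93 ± 0.11). Of 9 sex-linked genes 4 rose and 0 fell (median 0.13), beside the same shares of all tested genes. Without weights 2 rose and 1 fell, and with scaling to the coding total 6 rose and 0 fell. With the covariate, and without Het replicate 3, 0 were called.

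**Figure D4:**
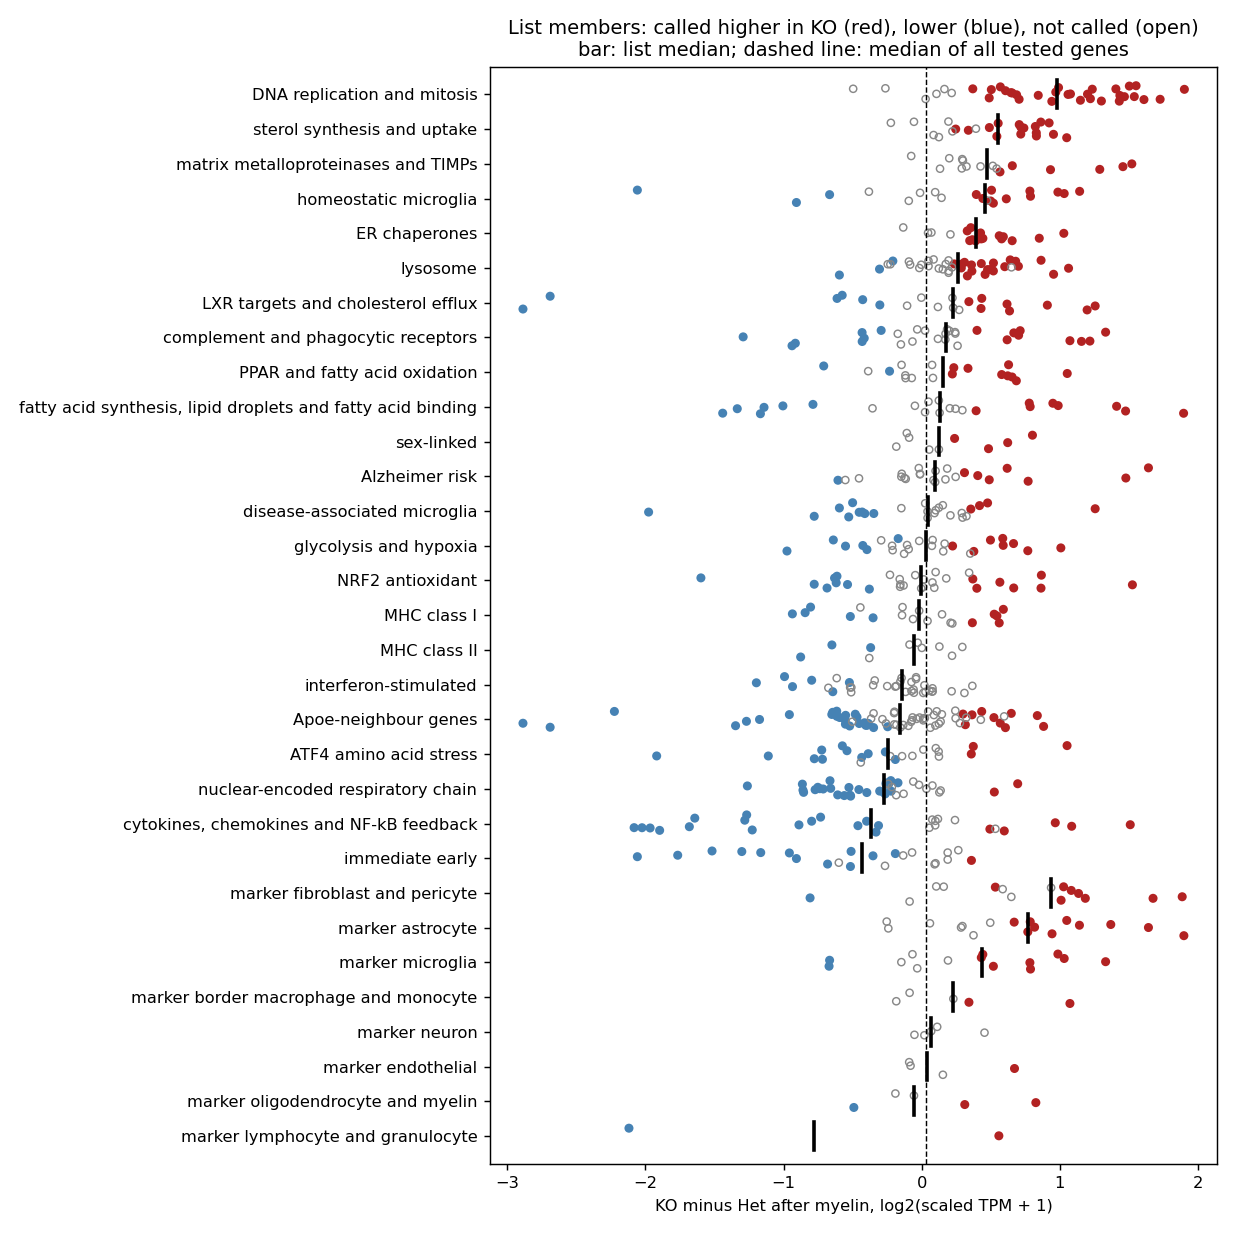
Log2 difference, KO minus Het after myelin, of every tested member of each gene list, 1 point a gene (red called higher, blue called lower, open not called), with the list median as a bar and the median of all tested genes, 0.03, as a dashed line. DNA replication has the highest median of the pathway lists at 0.98 and immediate early genes the lowest at -0.43.

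Markers of other cells were measured beside these lists. Summed over the 18 listed markers, astrocyte transcripts came to 119.7 to 154.0 scaled TPM in KO libraries. They came to 52.6 to 231.5 in Het libraries and 274.0 to 357.5 in WT libraries. The sums below likewise hold markers that were not tested. Of 17 tested astrocyte markers 10 were called higher in KO and 0 lower. With the covariate 4 were higher, and 1 was higher without Het replicate 3. In the main fit 24.8% of all tested genes rose and 22.1% fell. Het replicate 2 was high and replicates 1 and 3 low in markers such as Aqp4, a water channel, at 0.582, 7.79, 0.440 and 2.92 in Het libraries and 4.73 to 7.30 in KO. Fibroblast and pericyte markers summed to 233.8 to 683.7 in KO, 142.0 to 498.5 in Het and 3447 to 5321 in WT, with 8 of 15 called higher and 1 lower, and 0 called without Het replicates 1 and 2. Microglia markers summed to 16907 to 18364 in KO, 7815 to 19566 in Het and 11820 to 14934 in WT. Of 14 tested 8 were called higher and 2 lower. These counts became 4 and 1 without Het replicates 1 and 2, and 1 and 0 with the covariate. Oligodendrocyte and myelin markers summed to 84.9 to 97.6 in KO and 77.3 to 166.3 in Het, neuron markers to 10.0 to 13.8 in KO and 12.3 to 39.6 in Het, and endothelial markers to 13.3 to 19.6 in KO and 13.4 to 26.2 in Het. Of those 3 lists 2 of 5, 0 of 5 and 1 of 4 tested markers were called higher and 1, 0 and 0 lower, and with scaling to the coding total 2, 1 and 2 were higher and 0 lower. Border macrophage and monocyte markers had 2 of 5 called higher and 0 lower, and lymphocyte and granulocyte markers 1 of 2 each way, with S100a8, a neutrophil and monocyte protein, at 1.49 to 3.74 in KO and 6.85 to 33.7 in Het (-2.12 ± 0.29, lasting). Nkg7, of lymphocytes, was at 0 in all 9 libraries. The part of other cells in the differences was not tested.

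**Figure D5:**
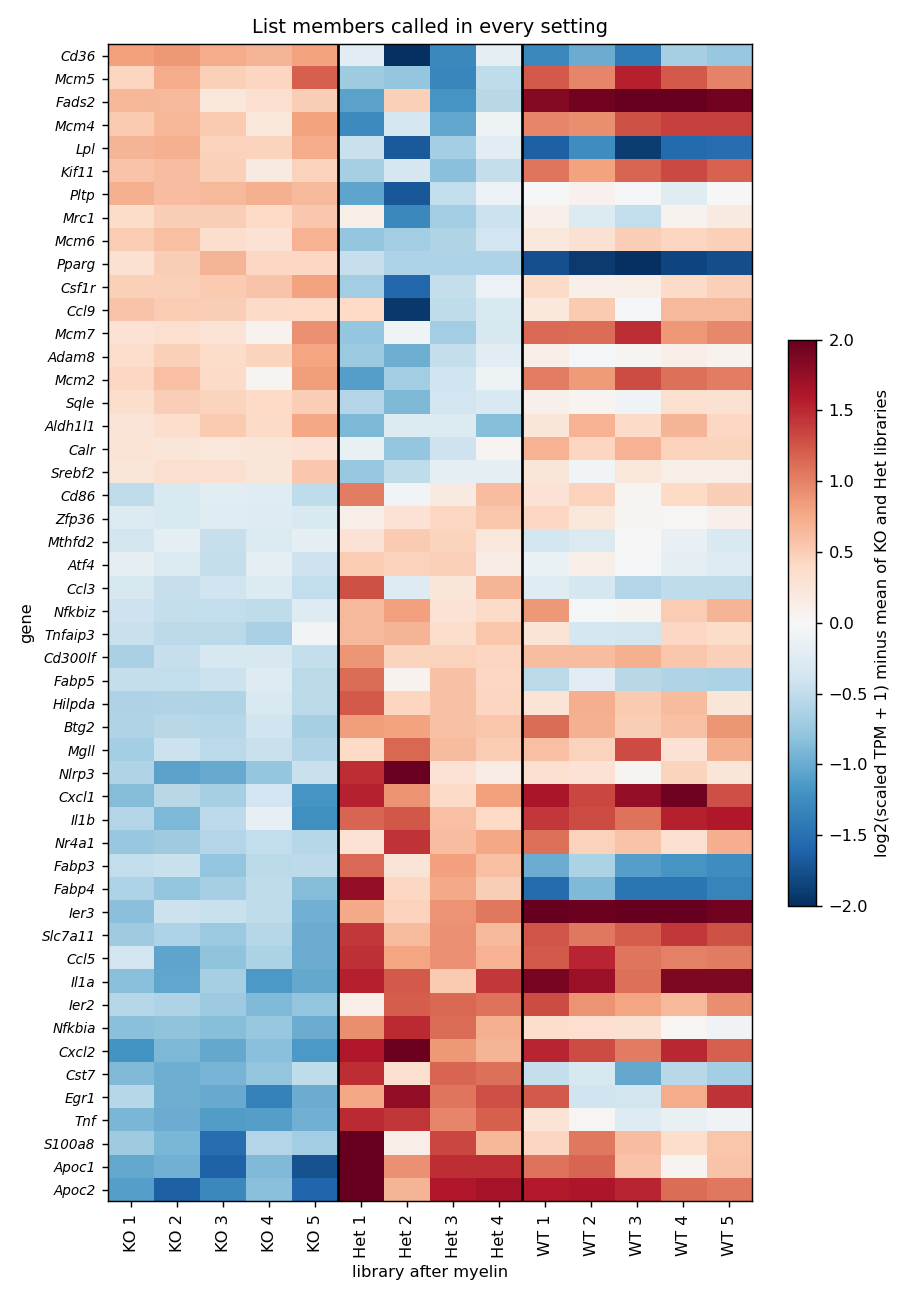
Level of the 50 list members, Apoe not drawn, that were called the same way in every setting (19 higher and 31 lower in KO), as log2(scaled TPM + 1) minus the mean over KO and Het libraries, in KO, Het and WT libraries after myelin. The colour scale ends at -2 and 2. The KO libraries share 1 pattern, and WT resembles KO in some genes, such as Fabp4 and Cst7, and Het in others, such as Cd36 and Slc7a11.

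The same pair of genotypes was at hand without myelin, in libraries that the myelin comparison does not share. Both comparisons came from 1 fit that shares its estimate of spread per gene. Without myelin 1640 genes were called (15%), 885 higher (8.08%) and 755 lower (6.9%) in KO. In all, 1369 genes were called in both, which is 26.7% of the myelin list and 83.5% of the untreated list. Of all tested genes 15% were called untreated and 46.9% after myelin. Of the genes called in both, 1364 had the same sign. Untreated Het libraries were also lower in nuclear coding share, at 0.468% to 18.4%, against 16.4% to 24.9% in untreated KO libraries. The part of coding share in the shared signs was not tested. Tnf differed by -2.32 ± 0.13 untreated, against -2.08 ± 0.14 after myelin, Folr2 by 2.00 ± 0.15 against 2.05 ± 0.16, Cst7 by -1.95 ± 0.12 against -1.98 ± 0.13, and Pparg by 1.09 ± 0.15 against 1.06 ± 0.15. Their difference between conditions was not called (limma interaction, adjusted p = 0.53, 0.92, 0.95 and 0.94). Of the cytokine list 15 fell and 2 rose untreated (median -0.63), and of immediate early genes 11 fell and 0 rose. Sterol genes had 3 of 23 higher untreated and 0 lower, and DNA replication genes 9 of 36 higher and 0 lower.

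The interaction, the KO minus Het difference after myelin minus that without, was called in 89 genes (0.813%), 57 above and 32 below 0. Mcm5 was among 3 genes with the smallest adjusted p, with 1.73 after myelin against 0.52 untreated (difference 1.21 ± 0.21, adjusted p = 0.00706, limma). The others were Aff1, which encodes a transcription elongation factor (difference 0.91), and the predicted gene Gm29311 (difference -3.32), named after their values were seen. Of the DNA replication list 5 genes were called and of the sterol list 2, among them Msmo1 (1.05 after myelin against 0.29 untreated, difference 0.76, adjusted p = 0.0338). These calls rested on the weights and on single libraries: limma called 1 gene without weights, where 1041 were at an unadjusted p under 0.05, 0 genes without Het replicate 3 and 1319 without Het replicate 1.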

How the data were processed

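The authors deposited gene-level TPM, transcript shares corrected for length, in a single table for the 47 libraries and 53697 genes. Salmon 0.13.1, limma 3.40.6 and mm10 are named in the submitters' processing notes without their roles. Which gene annotation and which options were used is not given in the sources used here. Per the labels' protocols, libraries came from polyA-enriched RNA with a low-input kit. TPM keep no depth, so no counting interval can be given.

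Each library was rescaled to a total of 1000000 over protein-coding genes outside the mitochondrial genome and divided by trimmed-mean factors (30% trimmed by log ratio, 5% by level). Tested were 10629 coding and 319 lincRNA genes that reached 5 scaled TPM in 4 or more libraries. The main test was limma 3.58.1 (R 4.3.3, data.table version 1.17.8) on log2(scaled TPM + 1), a scale that understates changes of low genes, with a mean for each of 10 groups, library weights and an intensity trend, two-sided, with Benjamini-Hochberg adjustment over all tested genes at 0.05. The fit was tested on simulated data. KO and Het are apart in a gene where no library of one lies within the range of the other. Settings tried were the scaling, weights, libraries left out, a fit of the 9 libraries, pseudocounts of 0.1 and 5, no filter, a filter at 20, coding share as a covariate and a replicate block. Named by rule were Apoe, the 10 largest differences each way among called genes that are apart with a mean of at least 10 scaled TPM (17 predicted genes skipped among the lower ones, 0 among the higher), and up to 4 genes of smallest p in each of the 30 lists and among the Apoe neighbours. Exceptions are marked in the text. 1 gene that the rule names is not reported here. The members, lists and rules were chosen with earlier results of these data known. Positions are from GENCODE M21 (GRCm38, the same assembly as mm10), which matched 100% of tested genes, and promoter windows from RefSeq GRCm38.p6, matched by symbol with the first listed window used.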

Additional observations from a re-analysis of the deposited data

Results flagged for a closer look

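In groups of 4 or 5 libraries, chance sets 1 library this far from the others in about 1 in 20 groups, which applies to the items on single libraries below. Library values are in scaled TPM after myelin, beside the range of the other libraries of the same group.

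In 11 items the single library was a KO library. Vsig4 was at 26.9 in KO replicate 1, against 20.4 to 21.9 in the others, and Lipa at 720.0 in the same library, against 644.0 to 651.3. Acta2, smooth muscle actin, was at 262.3 in KO replicate 2, against 79.6 to 112.3, and Bgn, a matrix proteoglycan, at 33.8, against 14.1 to 17.7. Gadd45b was at 25.7 in KO replicate 3, against 30.2 to 31.1, and Fabp3 at 76.8, against 91.7 to 97.9. Gpx4, a lipid peroxide reductase, was at 1076 in KO replicate 4, against 862.7 to 919.1, and Tmem106b at 31.95, against 38.7 to 41.1. In KO replicate 5, Csf1r was at 995.9, against 787.5 to 842.1, Kdm5c, an X-linked demethylase, at 22.7, against 17.2 to 17.9, and Selenow at 93.4, against 111.5 to 116.9.

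In 7 items it was a Het library. Pparg was at 19.7 in Het replicate 1, against 17.5 to 17.6, and Ier2 at 219.4, against 427.4 to 464.4. Map2, a neuronal microtubule protein, was at 2.69 in Het replicate 2, against 0.677 to 0.899. Prl2c2 was at 0.771 in Het replicate 3, against 3.91 to 4.92, and H2-Ab1, an MHC class II chain, at 4.37, against 1.05 to 1.29. Atf4 was at 144.8 in Het replicate 4, against 180.0 to 186.5, and Sel1l at 55.4, against 31.4 to 34.4.

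In 5 genes the KO minus Het log2 difference after myelin differed from that without myelin by the limma interaction test. The difference was 1.21 for Mcm5 (adjusted p = 0.00706), 0.76 for Msmo1 (adjusted p = 0.0338), 0.77 for Sel1l (adjusted p = 0.0419), 0.47 for P4ha1, a prolyl hydroxylase subunit (adjusted p = 0.0464), and 0.53 for Mcm6 (adjusted p = 0.0338). Limma called 0 genes in that test without Het replicate 3.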

How the results depend on the processing

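The counts of called genes and of interaction calls both moved. The count of called genes was 3185 without weights and without the 4 Het libraries under 6% coding content, 1773 without Het myelin replicates 1 and 2, 3315 for the 9 libraries without weights and 478 with the coding share as a covariate, and leaving out 1 library gave 831 to 6792. Called genes that were also apart numbered 1713 without Het replicates 1 and 2 and 293 with the covariate, and 796 to 3309 with 1 library left out. The interaction count was 1127 with scaling to the coding total, 1 without weights, 0 without weights and the 4 Het libraries, 0 without Het replicates 1 and 2, 38 at a pseudocount of 0.1, 392 at 5, 806 at a filter of 20, 0 with the covariate, 0 with the replicate block, and 0 to 1319 with 1 library left out. The cause was not tested. Without any filter beyond a value above 0 in 4 libraries 6735 of 26293 genes were called, 1472 higher and 5263 lower. Apoe kept its direction: -9.60 without Het replicates 1 and 2 (exact permutation p = 0.0952, from fewer libraries), -8.96 with the replicate block (p = 0.125, from 4 pairs), and -9.32 to -8.73 with 1 library left out. Same-numbered KO and Het libraries did not deviate together (r = 0.0712, 0.0998, -0.0399 and -0.299 for numbers 1 to 4). With 4 pairs and Het libraries so unlike in coding content, these values cannot show whether the numbers pair the samples. With the block 3683 genes were called.

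Of named genes, mostly low markers that were not called changed sign. With scaling to the coding total this was Mag (0.11), Map2 (0.10), Cdh5 (0.11), Esam (0.13) and Plac8 (0.0086). Without weights, in 47 and in 9 libraries, it was Gap43 (-0.21), Stmn2 (-0.33), Tubb3 (-0.17) and Flt1 (-0.031). Without weights and the 4 Het libraries Tubb3 was at -0.10 and Map2 at 0.040, and without Het replicates 1 and 2 at -0.051 and 0.036. With no filter Stmn2 was at -0.056. With the covariate they were Adam10 (-0.011), Ddx3y (-0.30), Ddx3x (-0.042), Mag (0.11), Cdh5 (0.38), Esam (0.20) and Plac8 (0.057), the first 3 called before. With the block they were Stmn2 (-0.15), Tubb3 (-0.059) and Flt1 (-0.14). Leaving out 1 library gave -1.12 to 0.093 for H2-Ab1, -0.36 to 0.65 for Gap43, -0.43 to 0.25 for Stmn2, -0.13 to 0.14 for Tubb3, -0.21 to 0.027 for Map2, -0.23 to 1.42 for Bgn, -0.0089 to 0.28 for Flt1, -0.25 to 0.0071 for Esam and -0.97 to 0.015 for Plac8. Without Het replicate 3, H2-Ab1 and Bgn, both called before, changed sign. TPM carry no depth, so what depth limits is unknown.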
